A study of Mus musculus with 10 samples.

Results

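A set of 10 immediate early genes (IEGs) was followed, Fos, Fosb, Junb, Egr1, Egr2, Egr3, Egr4, Arc, Npas4 and Nr4a1, in the hemibrains of 10 male mice. They were taken by name, as the probes whose RefSeq accession belongs to one of these genes, and 11 of the 41174 probes of the array did so, 2 of them for Junb. In all, 18539 genes were named on the array. RNA of the left hemibrain of 1 C57BL/6J mouse per array was labelled with Cy-5 and hybridised with another RNA labelled with Cy-3, so each value below is the log2 of Cy-5 over Cy-3 of the processed signals. The mice were single-housed from 3 weeks of age on a standard lab diet (SD) or a diet enriched in n-3 polyunsaturated fatty acids (FD), and were euthanized after about 20 weeks, at 5 months.

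The diet of each mouse could not be settled. The labels give FD for the Cy-5 RNA of all 10 arrays and also describe these samples as controls, while the study's methods have fewer arrays, of both diets. The Cy-3 RNA is called pooled SD hemibrain in some labels and a commercial reference RNA in the labelling protocol and in the methods. No diets were therefore compared, and the 10 arrays are described one by one, with no mean over them as a group.

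The Cy-5 RNA carried the markers of brain. A gene is called detected in a dye where the scanner software marked its spots as well above background. All 10 neuron markers were detected in Cy-5 on all 10 arrays, with a median log2 ratio of the list between 4.70 and 5.47. So were all 8 astrocyte markers (median ratio of 5.18 to 5.70) and all 6 oligodendrocyte markers (4.31 to 5.06). As lists, these markers were thus far lower in the Cy-3 RNA than in the Cy-5 RNA. A ratio above or below 0 is therefore relative to an RNA poor in them, whichever label is right. The arrays lay on 4 slides, with 4 arrays on slide 2, 4 on slide 3, and C10-413 and C10-437 alone on slides 1 and 4. Array C10-434 stood apart. Its median background-subtracted Cy-5 signal was 28.5, against 60 to 171 on the others. On it, 49.8% of probes were detected in Cy-5, against 68.2% to 76.9%. Results that rest on it are given with and without it.

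IEGs are switched on within minutes of a stimulus from proteins that the cell already holds, and most of their messages are short-lived. In neurons the stimulus is synaptic activity and these genes are widely used as a record of recent firing. Their known control runs through calcium and MAP kinase signals to CREB, which binds the cyclic AMP response element (CRE), and to serum response factor, which binds the CArG box. In hemibrain RNA, a change in the number of cells that express a gene and a change in the RNA of each such cell cannot be told apart.

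The promoters of these genes share letters of that control, and 5 with a single window are shown, for genes whose values and correlations are described below. RefSeq windows (build GRCm38.p6) were at hand for 7 of the 10 genes, and the 250 bases before the start of transcription were read in each. Fos lies at chr12:85473640-85473889 (plus strand), Junb at chr8:84978749-84978998 (minus strand), Egr4 at chr6:85513590-85513839 (minus strand), Npas4 at chr19:4989972-4990221 (minus strand) and Nr4a1 at chr15:101266596-101266845 (plus strand). Each sequence is written 5′ to 3′ on the strand of the gene. Capitals mark TGACG, the first letters of the CRE, on either strand, and in Fos also TATAAA, the letters of a TATA box.
Fos: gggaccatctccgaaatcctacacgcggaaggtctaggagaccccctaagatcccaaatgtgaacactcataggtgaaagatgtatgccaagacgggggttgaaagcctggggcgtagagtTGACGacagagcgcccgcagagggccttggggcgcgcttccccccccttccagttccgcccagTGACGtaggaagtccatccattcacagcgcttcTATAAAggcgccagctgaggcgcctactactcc
Junb: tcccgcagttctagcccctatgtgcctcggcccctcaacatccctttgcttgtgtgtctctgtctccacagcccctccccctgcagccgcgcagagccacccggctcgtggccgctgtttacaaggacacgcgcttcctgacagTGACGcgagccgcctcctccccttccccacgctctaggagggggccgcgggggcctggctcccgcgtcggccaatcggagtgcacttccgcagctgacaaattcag
Egr4: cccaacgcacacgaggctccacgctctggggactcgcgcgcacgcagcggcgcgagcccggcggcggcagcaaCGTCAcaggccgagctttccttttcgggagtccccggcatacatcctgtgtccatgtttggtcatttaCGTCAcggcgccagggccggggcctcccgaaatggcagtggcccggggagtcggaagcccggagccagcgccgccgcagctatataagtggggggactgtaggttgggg
Npas4: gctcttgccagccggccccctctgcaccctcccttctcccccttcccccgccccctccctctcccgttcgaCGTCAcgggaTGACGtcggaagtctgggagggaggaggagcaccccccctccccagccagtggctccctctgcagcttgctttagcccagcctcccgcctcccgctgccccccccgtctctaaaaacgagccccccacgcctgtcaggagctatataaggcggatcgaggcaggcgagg
Nr4a1: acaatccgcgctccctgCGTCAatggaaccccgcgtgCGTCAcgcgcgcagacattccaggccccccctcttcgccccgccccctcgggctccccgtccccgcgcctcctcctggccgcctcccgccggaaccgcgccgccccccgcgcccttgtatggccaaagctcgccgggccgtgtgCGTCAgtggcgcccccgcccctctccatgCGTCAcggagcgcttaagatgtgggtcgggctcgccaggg

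The letters TGACG or their reverse complement were found before all 7 genes with a window, against 17.7% of 32817 promoter windows of the same length. The first count is by gene, with any of its windows, and the share is by single window. Nr4a1 held 4 matches, Fos, Egr4 and Npas4 held 2 each, and Fosb and Junb 1 each. Egr2 has 5 windows, for different starts, of which 3 held 2 matches each. The 2 matches before Fos lay 129 and 66 bases from the start, and TATAAA (12.4% of windows) lay 33 bases from it. A CArG box was found before Egr2 alone among the 7 genes (1.47% of windows). The full CRE, TGACGTCA, whose letters include TGACG on both strands (1.55% of windows), and GCGTGGGCG, the site of the EGR proteins (0.536% of windows), were in none of them. These are matches of letters, not measured binding sites.

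Of the 10 genes, 8 could be followed on every array. Of 11293 genes whose brightest probe was detected in Cy-5 on all 10 arrays, with a value on each, Fos, Fosb, Egr1, Egr2, Egr4, Arc, Npas4 and Nr4a1 were members. Junb was detected everywhere, but spots marked as outliers left its probes with 9 and 7 arrays. Egr3, a zinc finger factor related to Egr1, was detected on 4 arrays in Cy-5 and 3 in Cy-3, and its log2 ratios, from -0.28 to 1.74, have no reliable order. Of the 8 genes, 5 were above 0 on all 10 arrays (40.9% of all genes tested were) and 2, Fos and Fosb, were below 0 on all 10 (36.7% of all genes). Egr1 alone crossed 0, on C10-415.

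**Figure D1:**
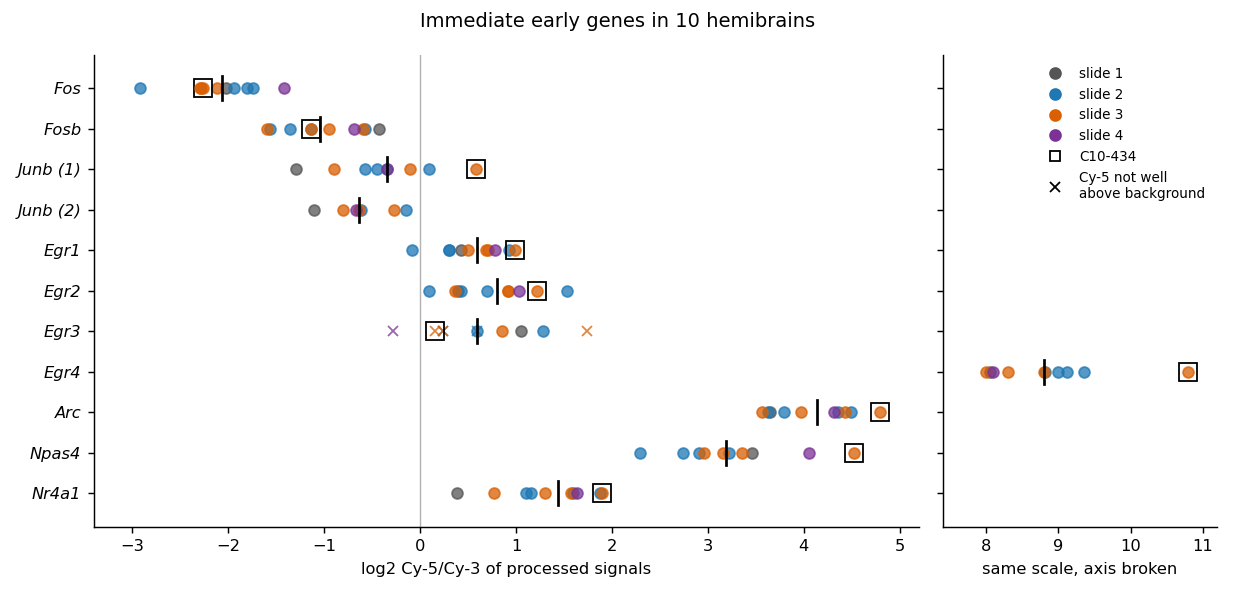
Log2 Cy-5/Cy-3 (horizontal axis, broken for Egr4) of the 11 probes on each array, 1 point per array coloured by slide, with a bar at the median and crosses where the gene was not detected in Cy-5. Squares mark C10-434, the highest array for Egr1, Egr4, Arc, Npas4, Nr4a1 and the first probe of Junb. Fos and Fosb lie below 0 on all 10 arrays.

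Fos encodes the partner of JUN in the AP-1 factor and is the classic marker of activated neurons. Its log2 ratio was -2.93 on C10-415, the lowest array, -2.07 at the median and -1.42 on C10-437, the highest, which is a 2.83-fold range. The Cy-3 signal scarcely moved: with each dye scaled to the 75th percentile of its array, Fos ranged over 1.46 log2 units in Cy-5 and over 0.11 in Cy-3. Fosb, a close relative of Fos, ran from -1.60 on C10-435 through -1.04 at the median to -0.43 on C10-413, and the array at its top was thus not the one at the top of Fos. Fosb too varied in Cy-5 (1.20) more than in Cy-3 (0.29).

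Junb is a JUN-family partner in AP-1. Its first probe, A_51_P159194, ran from -1.29 on C10-413 through -0.35 to 0.58 on C10-434 over 9 arrays. Its second, A_51_P159201, ran from -1.11 on C10-413 through -0.64 to -0.14 on C10-417 over 7 arrays. C10-413 was the lowest array and C10-424 the next lowest for both probes.

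Egr1, Egr2, Egr3 and Egr4 encode a family of zinc finger factors that bind the same GC-rich site. Egr1, also known as Zif268, was at -0.08 on C10-415, 0.59 at the median and 0.99 on C10-434. Egr2, also called Krox20, was at 0.09 on C10-415, 0.81 at the median and 1.54 on C10-423, a 2.72-fold range. The lowest array was thus the same for Fos, Egr1 and Egr2. Egr4 was at 8.0 on C10-424, 8.81 at the median and 10.8 on C10-434. This last value lay far above the next, 9.36 on C10-417, and on C10-434 the Cy-3 signal of Egr4 was 15.0, not well above background, where it was 55.0 to 140 on the other arrays. In the scaled signals, Egr4 ranged over 1.27 in Cy-5 and 2.18 in Cy-3 (1.28 without C10-434). The order of arrays by the Egr4 ratio thus carries the Cy-3 signal of a probe near background there.

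The remaining members act at the synapse or downstream of calcium. Arc encodes a protein that travels as mRNA to active dendrites and takes part in removing AMPA receptors from synapses. Its ratio was 3.56 on C10-424, 4.14 at the median and 4.80 on C10-434, and 1.91-fold apart at most on the other 9 arrays. Npas4, a neuron-specific factor that answers to calcium influx, ran from 2.29 on C10-423 through 3.19 to 4.53 on C10-434, with C10-437 next at 4.05. It was detected in Cy-3 on 7 arrays. The processed Cy-5 signal of Npas4 was also highest on C10-437, at 1906, against 392 to 1188 on the other arrays. Nr4a1, the orphan nuclear receptor Nur77, ran from 0.39 on C10-413 through 1.44 to 1.90 on C10-434. C10-417 was close behind at 1.88.

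The spread between arrays can be set against the spread of repeated spots, since Fos and Egr2 are among 245 probes printed as 10 spots on each array. The SD of the spots of Fos was 0.043 to 0.14 on the 10 arrays, and that of Egr2 0.033 to 0.10. For Fos, the spots of C10-415, from -3.0 to -2.83, lay wholly below those of C10-435, the next array, which began at -2.45, and the spots of C10-437 lay wholly above those of C10-423. For 7 of the 9 neighbouring pairs of arrays the spots of Fos overlapped, as did those of Egr2 for 6 of 9. Egr2 separated C10-415 at the bottom and C10-423 at the top from all other arrays, and left a gap between C10-416 (0.42) and C10-417 (0.70). The spots repeat the hybridisation of 1 RNA, so they measure technical error on the slide and not the error of the labelling or of the animal.

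**Figure D2:**
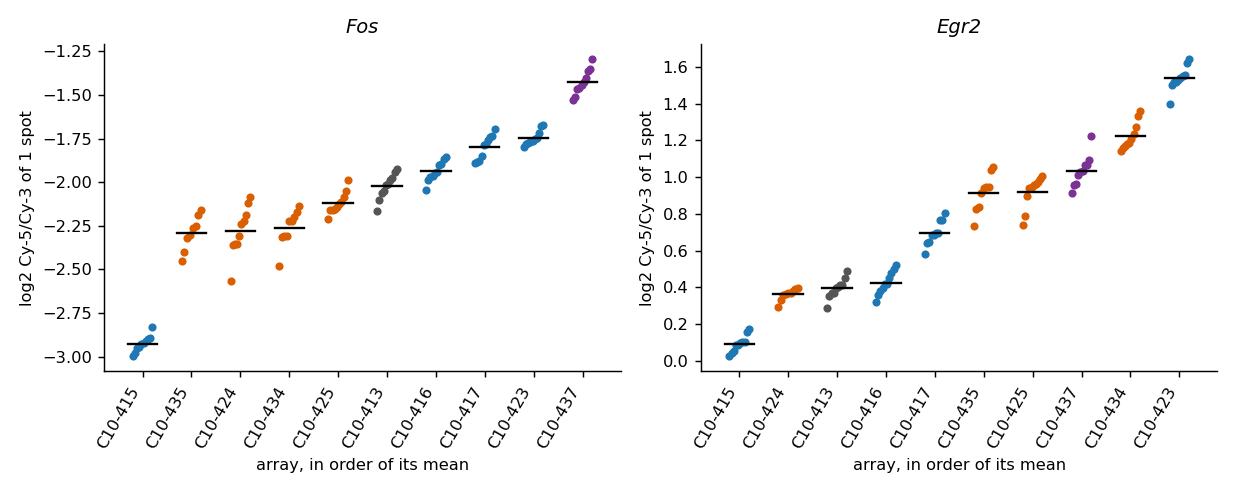
Log2 Cy-5/Cy-3 (vertical axis) of each spot of Fos (left) and Egr2 (right) on the 10 arrays, ordered by the mean of the array (bar) and coloured by slide (slide 1 grey, slide 2 blue, slide 3 orange, slide 4 purple). C10-415 lies below every other array in both, while C10-437 tops Fos and C10-423 tops Egr2.

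For the genes with 1 spot, the typical SD of repeated spots was used, 0.090. It is the median over 133 such probes well above background in both dyes. Spot error alone thus gives an SD of 0.13 for a difference between 2 arrays, with other error between arrays left out. By that measure, 5 of the 9 neighbouring pairs of arrays were closer than 1 SD for Arc and for Egr1 and 4 for Fosb and Nr4a1. The measure comes from probes detected in both dyes, so it was not applied to Egr4 and Npas4. The ends of each order were apart by more. The 8 genes had a median range over the arrays of 1.47 log2 units (1.40 without C10-434), where the median over all genes tested was 0.82 (0.76 without it).

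The arrays did not line up in a single order of low and high IEG expression. With the median of each gene subtracted, the mean of the 8 genes was highest on C10-434 (0.62) and C10-437 (0.24) and lowest on C10-415 (-0.38). In these ratios, the lead of C10-434 over C10-437 rests on Egr4 and Npas4, which were not detected in Cy-3 on C10-434. In Cy-5 alone, the mean of the 8 genes was 0.41 on C10-434 and 0.32 on C10-437. With a floor and an offset on the signals it was 0.38 and 0.19. Over the ratios of the other 6 genes, a choice made after the values were seen, the mean was 0.27 on C10-434 and 0.30 on C10-437, and C10-415 was again lowest, at -0.50. C10-434 was the highest array for 5 of the 8 genes, and for 19.4% of all genes, but for 3 of the 8 with median centring, with a floor and an offset on the signals or in Cy-5 alone, and for 2 with normexp, another background correction, followed by loess. On C10-434 the processed Cy-5 signal of Arc, 43502, was the lowest of the 10, and its processed Cy-3 signal, 1561, was far below the 3278 to 4859 of the others. Before dye normalization the Cy-3 median signal of Arc on that array, 1112, lay within the range of the others, 1040 to 1635. C10-415 was the lowest array for Fos, Egr1 and Egr2, 3 of 8, and for 13% of all genes, but with normexp Egr2 was lowest on C10-413. On C10-437, 7 of 8 genes, all but Egr4, were above their own median, while the median deviation of all genes there was -0.05.

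**Figure D3:**
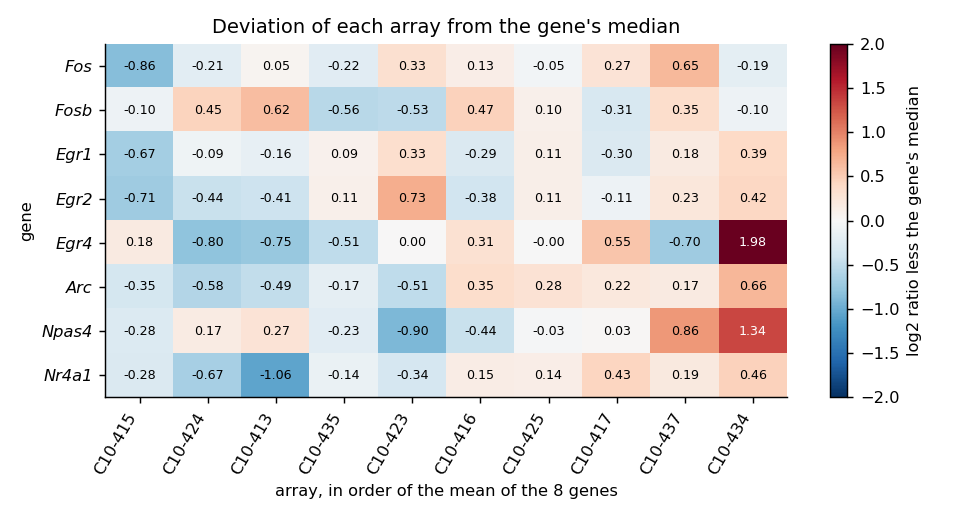
Log2 ratio of 8 IEGs (rows) less the median of the gene over the arrays, for the 10 arrays (columns) in the order of the mean of the 8 genes; colours run from -2 (blue) to 2 (red). Egr4 and Npas4 on C10-434, at 1.98 and 1.34, rest on Cy-3 signals that were not detected, and C10-415 is lowest for Fos, Egr1 and Egr2.

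Pairs of genes were then compared across the 10 arrays, with the Pearson correlation of each member against every other gene of the table, a two-sided permutation test with 100000 resamples, and Benjamini-Hochberg adjustment over the 11292 genes tested with that member. The highest correlations among the 28 pairs of members were those of Egr1 with Egr2 and of Arc with Nr4a1. The median r of the 28 pairs was 0.27, and 22 were positive, while the median r of all pairs of genes was 0.023, with 51.7% of them positive. Without C10-434 the median r of the member pairs fell to 0.077. In Cy-5 alone it was 0.23 and in Cy-3 alone -0.0097. In 4 of the 28 pairs the unadjusted permutation p was under 0.05, as it was for 4.06% to 28.3% of all genes, depending on the member, and only Egr2 with Egr1 passed after adjustment.

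Egr1 and Egr2 rose and fell together, with r = 0.90 (Spearman rho = 0.87). The permutation p was 0.00057, with an adjusted p of 0.0209 among the genes tested with Egr2, of which 9.25% passed. Among the genes tested with Egr1, of which 0.381% passed, the adjusted p of the same pair was 0.0709. Without C10-415 and C10-434, the arrays farthest from the median of Egr1, r was 0.86, and leaving out any single array gave r between 0.87 and 0.93. The adjusted p with Egr2 was 0.0511 without C10-415 and 0.101 without C10-423, and the pair did not pass by Spearman rho (adjusted p of 0.0715) or with the floor and offset (r = 0.69, adjusted p of 0.156). The correlation was 0.93 in Cy-5 alone and 0.0086 in Cy-3 alone, and was 0.97 after the slide means were subtracted on the 8 arrays of slides 2 and 3. With normexp it was 0.27 (adjusted p of 0.577), or 0.81 if C10-413 was left out as well, a choice made after the values were seen.

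Arc and Nr4a1 gave r = 0.88 (rho = 0.87) with a permutation p of 0.00069, and leaving out any single array gave r between 0.86 and 0.93. After adjustment the p was 0.422 among the genes tested with Arc and 0.529 among those tested with Nr4a1, so the pair did not pass. Without C10-424 and C10-434, the arrays farthest from the median of Arc, r was 0.84. The correlation was 0.79 in Cy-5 alone and -0.59 in Cy-3 alone, and 0.95 after the slide means were subtracted. Correlations of 0.85 or more, a limit chosen after the values were seen, were found in 2 of the 28 member pairs and in 1.42% of all pairs of genes.

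**Figure D4:**
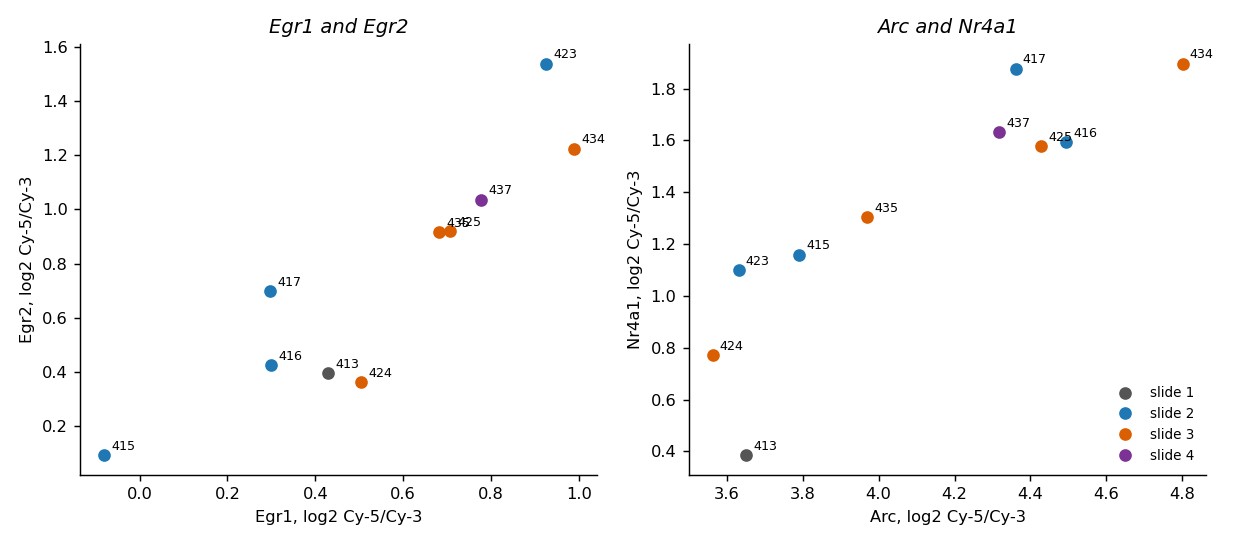
Log2 Cy-5/Cy-3 of Egr1 against Egr2 (left, r = 0.90) and of Arc against Nr4a1 (right, r = 0.88), 1 point per array, labelled by the last digits of its name and coloured by slide. C10-415 and C10-423 lie near the ends of the first line, but both in the lower part of the second.

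Junb lacks a value on some arrays and was compared apart. With its outlier-marked spots kept, its brighter probe correlated with Egr4 at 0.88, Nr4a1 at 0.84 and Arc at 0.80, and with Fos at -0.029. The permutation p for Egr4, Nr4a1 and Arc was 0.00092, 0.00229 and 0.00321, with adjusted p of 0.0788, 0.0998 and 0.113, so none passed. The other probe, over 9 arrays with outlier-marked spots left out, gave 0.93 with Nr4a1, 0.86 with Arc and 0.86 with Egr4, and 0.0066 with Fos. Whether Junb differs in this from Fos was not tested.

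Egr4 gave r = 0.70 with Arc and 0.66 with Nr4a1, with adjusted p of 0.172 and 0.249 among the genes tested with Egr4. Without C10-434, these were 0.49 and 0.63. Fos gave 0.49 with Egr1 and 0.54 with Egr2, neither past adjustment, and 0.12 with Fosb. Without C10-415 and C10-437, the arrays at its ends, the r of Fos was -0.25 with Egr1 and 0.19 with Egr2. Without C10-415 alone these were -0.0086 and 0.26, so the relation with Egr1 rests on that array and that with Egr2 does in part. Of the 7 correlations of Fosb, 5 were negative, with the lowest, -0.53, for Egr2 (adjusted p of 0.289). The correlations of Npas4 with the other 7 lay between 0.099 and 0.51. None passed adjustment.

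**Figure D5:**
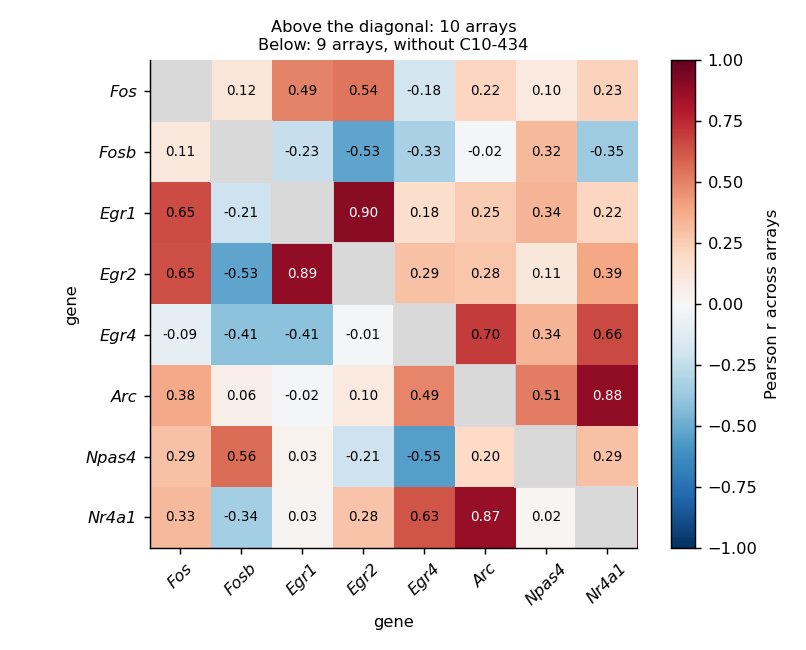
Pearson r of each pair of 8 IEGs, above the diagonal over 10 arrays and below it over 9 arrays without C10-434; colours run from -1 (blue) to 1 (red). Egr1 with Egr2 and Arc with Nr4a1 are the darkest squares on both sides, and Egr4 with Npas4 turns from 0.34 to -0.55 without C10-434.

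The members differed in how many genes of the whole table went with them. Fosb had 922 genes past an adjusted p of 0.05 (8.17%) and Egr2 had 1044, of which 687 had a negative r. Egr4 had 249 (2.21%), Egr1 43 and Fos 14 (0.124%). Arc (0%), Npas4 (0%) and Nr4a1 (0%) had none by the permutation test of either Pearson r or Spearman rho, with 804, 458 and 757 genes at an unadjusted p under 0.05. The counts rest on the measure and the array: by Spearman rho they were 766 for Fosb, 34 for Egr2 and 7 for Egr4, and 0 for the others. When an array was left out, the counts ran from 0 to 1041 for Fosb, with 0 without C10-413 and without C10-423, and from 0 to 1030 for Egr2, with 0 without C10-423. They ran from 0 to 337 for Egr4, with 0 without C10-434, from 0 to 129 for Egr1 and from 1 to 13 for Fos. With the floor and offset or with normexp Fosb had 0. Egr4 had 0 with the floor and offset and in Cy-5 alone, and 4468 with normexp.

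The genes closest to each member were named by the 3 highest r, a choice made after the values were seen. For Arc these were Klf10 (r = 0.93), Ier2 (0.92) and Btg2 (0.91), all on the list of 38 other IEGs and none past adjustment (adjusted p of 0.422). Klf10 and Ier2 encode nuclear regulators and Btg2 an antiproliferative protein, each induced early by growth factors. For Nr4a1 they were Nfil3 (0.91), a transcriptional repressor, Ckap5 (0.91) and Btg2 (0.90), with an adjusted p of 0.529. Egr2 was closest to Ktn1 (0.98), Hsp90aa1 (0.97), a heat shock chaperone, and Peli1 (0.97), all at an adjusted p of 0.0122. Egr1 was closest to Eml5 (0.97), Crnkl1 and Mcm4 (both 0.95), and Fos to Bcap29, Mex3b and Ice1 (all 0.96). Fosb was closest to Ptpdc1, Dnajc14 and Phf12 (0.96 to 0.97), Egr4 to Rspo1, Nat8l and Mal2 (all 0.98), and Npas4 to Slc6a17, Inppl1 and Taok2 (0.87 to 0.89, none past adjustment). With the mean of the 8 members, the closest 10 genes were Zfp445 (0.91), Iws1, Ppp1r12b, Tceal3, Gclc, Mtdh, Ubl3, Cadm1, Cracdl and Arhgef4 (0.86), and without C10-434 their r ranged from 0.63 to 0.87.

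Other IEGs are induced by the same signals. Of 38 on the list, 37 were on the array and 33 had a value for the comparison. Their median r with the mean of the members was 0.44, against -0.016 over all genes tested, and 30 of the 33 were positive. Without C10-434 these fell to 0.33, against -0.11, and 23 of 33. The list of neuron markers had a higher median r, 0.62, but a lower one, 0.22, without C10-434. With Egr2, 2 of the 33 passed, both positive: Rgs2, a brake on G-protein signals (r = 0.91, adjusted p of 0.0161, but 0.094 without C10-423), and Homer1, a scaffold of the synapse (r = 0.82, adjusted p of 0.0418). Homer1 passed in 1 of the 10 cases with an array left out. The share is below the 9.25% of all genes that passed with Egr2. With Egr4, 1 of 33 passed, where 2.21% of all genes did. It was Zfp36, which destabilises short-lived messages (r = 0.89, adjusted p of 0.0443). Zfp36 also passed in 1 of those 10 cases and had an adjusted p of 0.316 without C10-434. None passed with the other 6 members. Homer1 and Rgs2 gave r of 0.90 and 0.88 with Egr1 too, with adjusted p of 0.0653 and 0.0783.

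Late genes, which follow IEGs by hours, gave calls with Egr4 alone, and upstream factors with Fosb alone. Of the 7 delayed genes with values, 2 passed with Egr4, where 2.21% of all genes did, and none with another member. These were Penk, the proenkephalin gene (r = 0.96, adjusted p of 0.00706), and Scg2, a secretory granule protein (r = 0.93, adjusted p of 0.0376). With an array left out they passed in 8 and 2 of 10 cases, neither of them without C10-434 (adjusted p of 0.18 and 0.316). The delayed genes were split with Egr4: Nptx2 was at 0.68, but Nptx1 at -0.65 and Pcsk1 at -0.63, none past adjustment. Their median r with Egr4 was 0.30, against 0.058 over all genes. Bdnf, the neurotrophin gene, gave r = 0.90 with Egr1 and missed the threshold at an adjusted p of 0.0506. It was lowest on C10-415, at -1.26, where Egr1 and Egr2 were lowest too. Of the 8 upstream factors, 2 passed with Fosb, where 8.17% of all genes did, and none with another member. They were Mapk3, the kinase ERK1 (r = 0.91, adjusted p of 0.019), and Mef2d, a calcium-responsive factor (r = 0.87, adjusted p of 0.0311). Mapk3 passed in 8 of the 10 cases with an array left out and Mef2d in 5, and neither without C10-413 (adjusted p of 0.0945 and 0.11) or C10-423 (0.0687 and 0.0946), nor with the floor and offset or normexp.

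Markers of cell types were set beside the members, and their part in the results was not tested. The lists covered neurons, glia, endothelium, choroid plexus, blood and brain regions. The summed processed Cy-5 signal of the 10 neuron markers ran from 208305 on C10-434 to 485864 on C10-413. Relative to the median of each gene, the mean of the neuron list ran from -0.27 on C10-423 to 0.78 on C10-434, the astrocyte list from -0.35 to 0.29 and the cerebellum list from -0.37 to 0.78, with C10-434 highest in each. Other lists went the other way there: cortex and hippocampus (-0.47) and microglia (-0.18) were at their lowest on C10-434, and striatum was at -0.23. The median r with the mean of the members was 0.62 for the neuron list and 0.57 for the astrocyte list, and 0.22 for both without C10-434. Of 55 marker genes tested with each member, 11 passed with Egr4, or 20%, where 2.21% of all genes did, and none of the 11 passed without C10-434. Of the 11, 10 were positive, such as Slc1a3 of astrocytes (r = 0.97) and Calb1 of cerebellum (0.97). Neuron markers were on both sides, with Syt1 at 0.93 and Nefl at 0.84 but Stmn2 at -0.90 (adjusted p of 0.0214). With Egr2, 3 of 55 passed (5.45%), a smaller share than the 9.25% of all genes, all 3 with a negative r and none of them without C10-423. These were Tmem119 of microglia (r = -0.96, adjusted p of 0.0122), Aldh1l1 of astrocytes (r = -0.82, adjusted p of 0.0319) and Drd2 of striatum (r = -0.84, adjusted p of 0.0329). Other genes of the same lists had a positive r with Egr2, as Gja1 of astrocytes (0.74) and P2ry12 of microglia (0.29). With Fosb, 1 of 55 passed (1.82%, against 8.17% of all genes), Csf1r of microglia (r = 0.85, adjusted p of 0.0337), where Aif1 of the same list was at -0.74, and it did not pass without C10-413 or C10-423. No marker gene passed with Fos, Egr1, Arc, Npas4 or Nr4a1.

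Slides were compared as a technical batch, slide 3 minus slide 2, with limma and Benjamini-Hochberg adjustment over 40299 probes. None of the 9 member probes tested passed, where 0.0744% of all probes did, none had an unadjusted p under 0.05, and the values of the slides overlapped for all of them. Npas4 was nearest, with a difference of 0.71 (SE 0.35, unadjusted p of 0.0736, adjusted p of 0.573): its ratios ran from 2.29 to 3.22 on slide 2 and from 2.96 to 4.53 on slide 3. Egr1 differed by 0.36 (SE 0.23, adjusted p of 0.717). The differences of Fos, Fosb, Egr2, Egr4, Arc and Nr4a1 lay between -0.14 and 0.17, with SEs from 0.26 to 0.53. Junb was not tested, since its probes lack values on some of these arrays. The animals differ between the slides and their diets are not known, so slide and animal cannot be told apart.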

How the data were processed

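The authors labelled RNA of each hemibrain with Cy-5, hybridised 10 two-colour Agilent arrays and deposited the output of Feature Extraction 10.10.1.1. The deposited signals of each dye are intensities on a linear scale, and in the processed signals the background has been subtracted and the dyes normalized by that software. The authors also deposited a table of 1 log2 ratio of Cy-5 over Cy-3 per probe and array.

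From the processed signals, log2 Cy-5/Cy-3 was computed, without control spots and spots marked as non-uniform or population outliers in either dye, and spots of a probe were averaged. A probe was well above background on an array if at least 0.5 of its spots were marked so. The brightest probe stood for a gene. Probes were named by RefSeq accession through a gene table of GRCm38.p6 (27198 of 41174 probes), and the array's coordinates were not used. Correlations were tested by permutation in Python 3.11.15 with numpy 2.4.6, and slides with limma 3.58.1 in R 4.3.3. Both scripts were tested on simulated data. The number of arrays limits the precision, and depth has no counterpart in these files.

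The members, gene lists and tests were chosen with earlier results of these data known. The genes named are the 10 members, genes of the lists, and the 10 genes most like the mean of the members. Alternatives were loess, median centring, a floor of 0.5 with an offset of 50 then loess, normexp then loess, the deposited table, each dye alone, filters on dim probes, the mean of all probes of a gene, Spearman rho, slide means, and leaving out each array. Keeping the outlier-marked spots, and normexp for the count of members above 0, were added after the data were seen.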

Additional observations from a re-analysis of the deposited data

Results flagged for a closer look

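Egr4 on C10-434, at 10.8 on the log2 scale, lay apart from the other 9 arrays by more than the gap that Dixon's test allows, and no other member probe did so on any array. About 1 in 20 groups exceeds that gap by chance. The Cy-3 signal of Egr4 there was not well above background, and in Cy-5 alone the range of Egr4 over the arrays was 1.27.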

How the results depend on the processing

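C10-434 was the highest array for 5 of 8 members as reported, for 3 with median centring, with the floor and offset, and in Cy-5 alone, and for 2 with normexp. Under normexp the mean of the members on C10-415 was -0.84, and C10-415 stayed lowest for Fos and Egr1. C10-413 was then lowest for Egr2 (-0.02, with 0.08 on C10-415), Egr4, Arc, Npas4 and Nr4a1. It was also highest for Fos under normexp, at -0.59, with -1.27 on C10-437. The count of 1 ordered member pair past the threshold was 0 by Spearman rho, with the floor and offset and in Cy-3 alone, 2 with median centring and 3 with normexp. Leaving out an array gave 0 to 1 such pairs. The r of Egr2 with Egr1 was 0.87 by Spearman rho (adjusted p of 0.0715), 0.69 with the floor and offset, 0.27 with normexp and 0.0086 in Cy-3 alone, and 0.87 to 0.93 when an array was left out. In Cy-3 alone the r of Arc with Nr4a1 was -0.59, and the median r of the member pairs -0.0097. Between slides, 30 probes passed as reported, 0 with the floor and offset or normexp, 68 with only bright probes, 2704 in Cy-5 alone, and 0 to 18 when an array was left out (18 without C10-423, 2 without C10-415, 0 without any other). No member probe passed under any of these. The 0 members past the threshold as reported had no unadjusted p under 0.05 by limma, the smallest being 0.0736. The counts of members above or below 0 on all arrays were 5 and 2 as reported and under loess, centring, the floor and offset, the deposited table and with outlier-marked spots kept, and 4 and 2 with normexp. The deposited table holds the same ratios, so its counts and ranges were bound to match those reported. Keeping the outlier-marked spots changed no range of these 8 members either. With both of these included, 51 ranges of single members moved by less than the SD of the arrays and 5 by more, those of Egr4 (1.76 with the floor and offset, 6.04 with normexp, 1.27 in Cy-5 alone), Npas4 (1.40 with the floor and offset) and Arc (2.61 with normexp). The cause of these differences was not tested. No paired analysis was possible because the arrays are in no groups. Dim Cy-3 signals limit Egr3, Egr4 and Npas4, and single spots limit all members but Fos and Egr2.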
